A study of Mus musculus with 6 samples.

Results

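A set of 10 genes that mark the epithelium of the choroid plexus, among 25206 probe sets, was followed between aged and young mice: Ttr, Enpp2, Sostdc1, F5, Folr1, Kl, Prlr, Htr2c, Clic6 and Otx2. They were taken by symbol from the deposited expression table, and each symbol had 1 probe set, the group of probes that reads 1 gene. The aged group was 3 C57BL/6J mice of 20 to 22 months, and the young group was 3 C57BL/6J mice of 2 to 3 months. No transgene or treatment is named for either group, and the labels do not give sex, batch or array model. Each array carried choroid plexus RNA of 1 mouse, so the number of mice limits the precision of every value. Values are log2 expression after RMA, the authors' background correction, normalization and probe summary, and differences are aged minus young. A gene was called where its limma p, adjusted by Benjamini-Hochberg over all probe sets, was under 0.05.

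The choroid plexus hangs in the brain ventricles as a folded sheet of epithelium over a fenestrated capillary bed. The epithelium secretes cerebrospinal fluid and adds to it carrier proteins, vitamins and hormones taken from blood or made in the cell. Its identity is set during development with the homeodomain factor Otx2, and its mature cells make very large amounts of secreted and membrane proteins that few other brain cells make. In the annotation deposited with the values, 9 of the 10 genes carried Gene Ontology terms. Of these, 5 (Enpp2, F5, Kl, Sostdc1 and Ttr) were placed in the extracellular region, a term held by 6.5% of the 20268 annotated probe sets.

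Promoter windows from 250 bases before to 50 after a transcription start were found in RefSeq (GRCm38.p6) for Kl, Otx2, Prlr, Htr2c and F5, 10 windows in all, of which Otx2 had 4 and Prlr 3. They were searched on both strands for TAATCC, the core bound by Otx-type homeodomains, for TGTTTAC, a forkhead core, and for TTCNNNGAA, the core bound by STAT5, which prolactin receptors activate. The 2 windows below, both shown in the gene's direction, were those that held any match. They are printed because Otx2 is the transcription factor of the set and because Prlr, described later, had the widest spread among the aged arrays. Capitals mark the matches, none of which overlap.
Otx2, chr14:48665060-48665359, minus strand: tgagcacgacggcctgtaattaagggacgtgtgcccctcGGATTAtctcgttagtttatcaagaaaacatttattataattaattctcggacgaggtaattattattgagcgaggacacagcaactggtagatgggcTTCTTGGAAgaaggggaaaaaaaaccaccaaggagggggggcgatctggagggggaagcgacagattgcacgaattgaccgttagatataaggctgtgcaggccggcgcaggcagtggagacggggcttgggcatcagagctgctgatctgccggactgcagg
Prlr, chr15:10223656-10223955, plus strand: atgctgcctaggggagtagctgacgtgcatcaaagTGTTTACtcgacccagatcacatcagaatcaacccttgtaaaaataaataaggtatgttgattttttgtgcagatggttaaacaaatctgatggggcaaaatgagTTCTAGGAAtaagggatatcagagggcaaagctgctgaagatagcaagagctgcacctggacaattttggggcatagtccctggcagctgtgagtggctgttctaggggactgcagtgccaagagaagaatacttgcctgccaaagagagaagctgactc
The Otx2 window held the Otx core, read here on the other strand, beginning 211 bases before the start, and a STAT5 core beginning 113 bases before it. The Prlr window held a forkhead core 215 bases and a STAT5 core 110 bases before the start. Of 27025 genes with a window, 8.1% held the Otx core, 4.1% the forkhead core and 9.6% the STAT5 core in at least 1 window, and genes with several windows had more chances. A match is a string of letters and not a measured site.

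None of the 10 genes passed the test between aged and young choroid plexus (limma, 0 called). Of all probe sets 0.0793% were called, so the absence of a call among 10 genes is near the background. The smallest adjusted p was 0.792, for Clic6, and the unadjusted p ranged from 0.217 to 0.731, where 7.77% of all probe sets lay under 0.05. The differences ran from -0.16 to 0.39, 6 above and 4 below 0, with a median of 0.061 against -0.002 over all probe sets. Otx2 was the 1 gene whose 3 aged values all lay above the 3 young values, a pattern shown by 6.69% of all probe sets. The 95% interval lay within 0.5 on either side of 0 for 7 genes and within 1 for 9, and the widest interval belonged to Ttr. For Ttr and Enpp2, the highest and second probe sets of every array, saturation was not tested. Their intervals are therefore not read as a limit on a change in RNA. In bulk tissue, fewer cells of a type and less RNA per cell cannot be told apart.

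**Figure D1:**
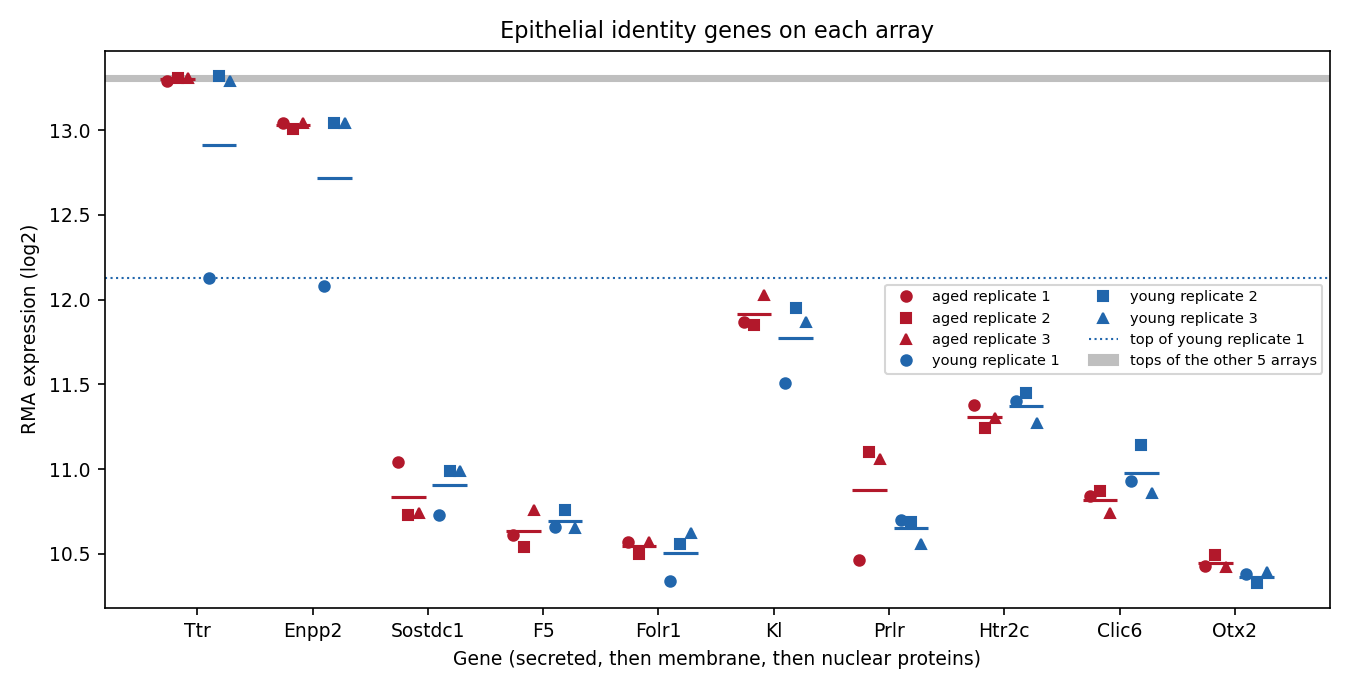
Log2 expression of each gene on each array, with aged arrays (red) left of young arrays (blue) and a bar at each group mean. The grey band spans the highest values of 5 arrays, 13.29 to 13.32, and the dotted line is the highest value of young replicate 1, 12.13, on which the Ttr point of that array lies.

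The top of each array's scale has to be read before the values. Ttr was itself the highest probe set on all 6 arrays, Enpp2 the second and Rn45s, the ribosomal RNA precursor, the third. The highest value was 13.29, 13.31 and 13.31 on the aged arrays, against 12.13, 13.32 and 13.29 on young replicates 1, 2 and 3. Young replicate 1 thus ended more than 1 log2 unit lower than any other array. Its median, 4.07, lay within the 4.03 to 4.09 of all arrays, and its median departure was larger at the bright end. Among probe sets with a mean of 8 to 10 on the other 5 arrays, young replicate 1 differed from that mean by a median of -0.01. The median difference was -0.13 for the 143 probe sets between 10 and 11, -0.18 for the 34 between 11 and 12, and -0.73 for the 6 above 12. All 6 of the last group were lower on that array, by 0.518 or more. Single probe sets departed at lower levels too, from -3.19 to 0.97 between 8 and 10 and from -1.368 to 0.506 between 10 and 11. Among those that fell further than Ttr were Cox8b (-1.765), Rny1 (-1.368) and Snord100 (-1.344), with SDs of 0.552, 0.132 and 0.291 over the other 5 arrays. Several other small nucleolar RNAs were low there too, such as Snord33 (-1.308) and Snord22 (-1.091), while Snora35 was higher (0.368). The cause of these departures was not tested.

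**Figure D2:**
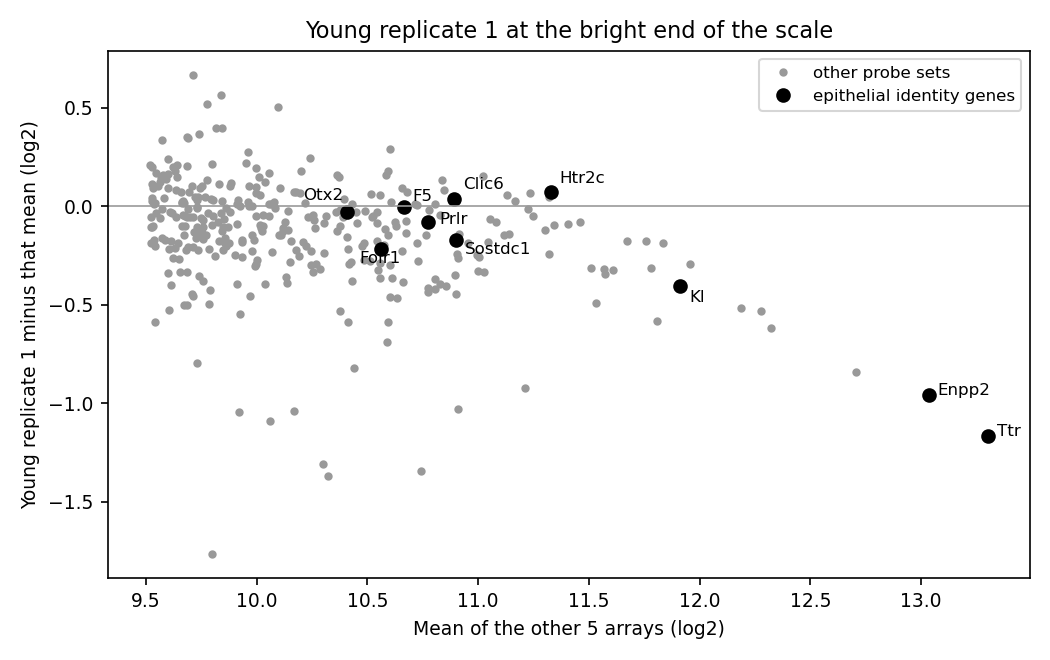
Difference of young replicate 1 from the mean of the other 5 arrays (vertical, log2) against that mean (horizontal, log2) for probe sets of 9.5 and above. Kl, Enpp2 and Ttr lie on the falling right-hand part, at -0.405, -0.956 and -1.168, while Htr2c at 0.07 and F5 at -0.004 lie near 0.

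Of the secreted proteins, transthyretin (Ttr) carries thyroid hormone and, with retinol-binding protein, vitamin A, and is the best known product of this epithelium. Ttr (probe set 22139_at) was at 13.29, 13.31 and 13.31 on the aged arrays, against 12.13, 13.32 and 13.29 on the young arrays. Apart from young replicate 1, the 5 values lay within 0.03 of each other and the groups overlapped. The means were 13.30 ± 0.01 in aged and 12.91 ± 0.68 in young tissue (SD, n = 3 each). The difference of 0.39 had an interval of -0.29 to 1.07 (limma adjusted p = 0.798), and without young replicate 1 it was -0.001. Ttr itself defined the end of the scale on every array, and its SD over the 5 arrays other than young replicate 1 was 0.013. The cause of this small spread, and saturation, were not tested. A change in its RNA could thus go unseen, and no limit on it is read from the arrays.

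Enpp2 (18606_at) encodes autotaxin, the secreted enzyme that makes the signalling lipid lysophosphatidic acid. Its values were 13.04, 13.01 and 13.04 on the aged arrays and 12.08, 13.04 and 13.04 on the young arrays. The same array was low as for Ttr, and elsewhere the groups overlapped within 0.032. The difference was 0.31 with an interval of -0.26 to 0.88 (limma adjusted p = 0.804), and it was -0.011 without young replicate 1. Enpp2 was second on every array, with an SD of 0.014 over the 5 other arrays, on which it lay 0.25 to 0.30 below Ttr. The 2 genes thus did not share 1 highest value. Saturation was not tested here either, so a change in its RNA could also go unseen.

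Sostdc1 (66042_at), a secreted antagonist of BMP and Wnt signals, stood further from the top. It was at 11.04, 10.73 and 10.74 on the aged arrays and at 10.73, 10.99 and 10.99 on the young arrays. In each group 1 array departed from the other two, upward in the aged and downward in the young group, and the ranges overlapped. The difference was -0.07 with an interval of -0.38 to 0.25 (limma adjusted p = 0.936) and moved between -0.169 and -0.012 when single arrays were left out.

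F5 (14067_at) encodes coagulation factor V, a cofactor of thrombin formation made mainly in liver. It was at 10.61, 10.54 and 10.76 on the aged arrays and at 10.66, 10.76 and 10.65 on the young arrays. The groups overlapped over most of their range. The difference was -0.06, with an interval of -0.31 to 0.20 (limma adjusted p = 0.931).

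Among the membrane proteins, the folate receptor Folr1 (14275_at) moves folate from blood into cerebrospinal fluid. Folr1 was at 10.57, 10.50 and 10.57 in aged tissue and at 10.34, 10.56 and 10.62 in young tissue. Young replicate 1 was the lowest array and the others overlapped. The difference was 0.04 with an interval of -0.22 to 0.30 (limma adjusted p = 0.958), and -0.04 without young replicate 1.

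Kl (16591_at) encodes Klotho, a co-receptor for FGF23 that is also shed into the fluid and whose loss in mice gives an early aging-like disorder. Kl was at 11.87, 11.85 and 12.03 on the aged arrays, against 11.51, 11.95 and 11.87 on the young arrays. Young replicate 1 was again the low array, and the other young values lay inside the aged range. The difference was 0.14 with an interval of -0.19 to 0.47 (limma adjusted p = 0.851). Without young replicate 1 it was 0.005. A fall of Kl to a fold of 0.876 in aged tissue is the lower end of that interval, and a rise to a fold of 1.384 the upper end, with folds at this brightness open to compression.

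Prlr (19116_at), the prolactin receptor, varied most among the 8 genes below the scale top. It was at 10.46, 11.10 and 11.06 on the aged arrays and at 10.70, 10.69 and 10.56 on the young arrays. Aged replicates 2 and 3 were above every young array, while aged replicate 1 was below all of them. The aged SD was 0.36 and the young SD 0.073. The difference was 0.23 with an interval of -0.19 to 0.64 (limma adjusted p = 0.800). Without aged replicate 1 it was 0.431, with an unadjusted p of 0.011 and a limma adjusted p of 0.376. Aged replicate 1 also had the highest mean of the neuron and astrocyte marker lists, given below, and their part in the Prlr value was not tested. The mean of 30 other epithelial genes, also given below, was 9.70 on that array, within 9.67 to 9.77 on the aged arrays.

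Htr2c (15560_at) encodes the serotonin 2C receptor, a Gq-coupled receptor for which this epithelium is a classic source. It was at 11.38, 11.24 and 11.30 on the aged arrays and at 11.40, 11.45 and 11.27 on the young arrays. The ranges overlapped, and young replicate 1 was not low. The difference was -0.06 with an interval of -0.31 to 0.19 (limma adjusted p = 0.923). The RNA editing for which Htr2c is known is not read by these values.

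Clic6 (209195_at), a member of the chloride intracellular channel family, had the smallest p of the set. Its values were 10.84, 10.87 and 10.74 in aged tissue and 10.93, 11.14 and 10.86 in young tissue. Aged replicate 2, at 10.87, lay just above young replicate 3, at 10.86, and the other aged values lay below every young one. The difference was -0.16 with an interval of -0.43 to 0.11 (limma adjusted p = 0.792). Without young replicate 2, the highest array, it was -0.075.

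Otx2 (18424_at), the transcription factor of the set, had the smallest range over the 6 arrays. It was at 10.43, 10.49 and 10.42 on the aged arrays and at 10.38, 10.33 and 10.39 on the young arrays. The groups did not overlap, but the lowest aged and highest young values were close. The difference was 0.08 with an interval of -0.15 to 0.31 (limma adjusted p = 0.883). The SDs were 0.034 in aged and 0.031 in young tissue.

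**Figure D3:**
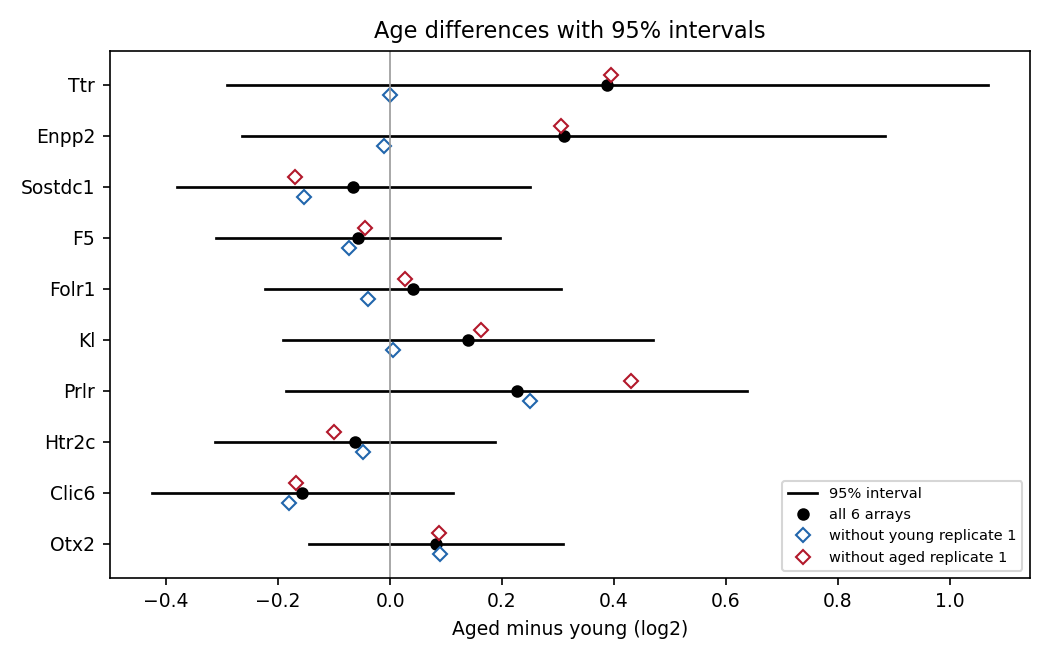
Age difference of each gene (black points, aged minus young, log2) with its 95% interval, and the same difference without aged replicate 1 (red diamonds) or without young replicate 1 (blue diamonds). The Ttr and Enpp2 differences of 0.39 and 0.31 move to -0.001 and -0.011 without young replicate 1, and that of Prlr moves to 0.431 without aged replicate 1.

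Ranks within an array set its scale end aside only where the order of its probe sets is kept. They also follow how many others lie close by. Young replicate 1 had 31 probe sets above 11, against 40 to 43 on the other arrays. Otx2 ranked 95 there at 10.38, and 126 on young replicate 3 at 10.39. All 10 genes ranked within the highest 129 probe sets on every array. Ttr ranked 1 and Enpp2 2 on all 6, and Kl ranked 9, 8 and 7 on the aged arrays and 10, 8 and 9 on the young arrays. The position of Kl on young replicate 1 was thus 1 place below its lowest place elsewhere. Clic6 ranked 57, 55 and 71 on the aged arrays, against 37, 35 and 53 on the young arrays. The nearest ranks were 55 on aged replicate 2 and 53 on young replicate 3, where the values were 10.87 and 10.86. The rank of 37 on young replicate 1, at 10.93, was counted among fewer bright probe sets. The share of all probe sets with ranks apart was not computed, so no separation of the groups is read from the Clic6 ranks. Otx2 ranked 112, 105 and 117 on the aged arrays and 95, 129 and 126 on the young arrays. The Otx2 ranks overlapped only through young replicate 1, while the values did not overlap. Prlr ranked 104, 33 and 36 on the aged arrays and 55, 70 and 97 on the young arrays.

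**Figure D4:**
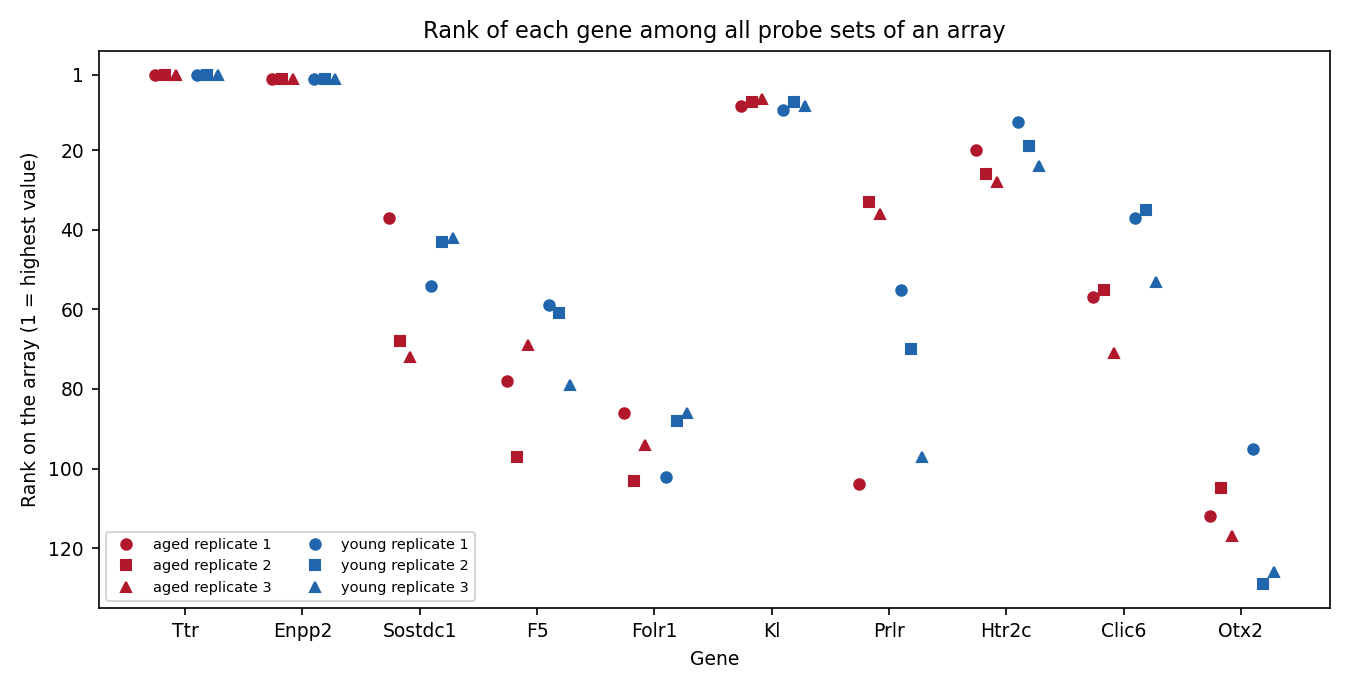
Rank of each gene among all 25206 probe sets of an array, where 1 is the highest value, with aged arrays (red) left of young arrays (blue). Ttr, Enpp2 and Kl hold ranks 1, 2 and 7 to 10 throughout, while Prlr runs from 33 to 104.

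The spread of the 10 genes was like that of other bright probe sets. Their median SD within groups was 0.140, against 0.131 for the 171 other probe sets with a mean above 10 and 0.169 for all probe sets. The median size of their age difference was 0.110, against 0.119 for those other bright probe sets, of which 0 were called as well.

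Profiles over the 6 arrays were compared with those of 12602 other probe sets above the median mean, by the root mean square difference after each profile was centred on its own mean. The profile nearest to Ttr was Enpp2, at a distance of 0.081, and nearest to Enpp2 was Rn45s, at 0.059. All 3 were lowest on young replicate 1. Nearest to Sostdc1 were Cldn2 (0.031), a pore-forming claudin of this epithelium, and Prmt9 (0.041). Nearest to Prlr were Slc39a14 (0.064), a zinc and iron carrier, and Cdk8 (0.069). Kl was nearest to BC024978 (0.024) and Riox1 (0.028), and Clic6 to Slc31a1 (0.026), the copper carrier, and Mcur1 (0.029). Smaller distances were found for Htr2c to Pdpk1 (0.005), F5 to Cep43 (0.019), Folr1 to Mus81 (0.020) and Otx2 to Arhgef18 (0.020). The spread of each gene around its own mean, which bears on these distances, ran from 0.049 for Otx2 to 0.436 for Ttr. The nearness of these profiles is a description over 6 arrays and was not tested.

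Other genes known from the epithelium also showed no shared direction, but single genes among them differed more than the 10. Of 30 listed genes all had a probe set, with list means of 9.67 to 9.77 on the aged arrays and 9.62 to 9.79 on the young arrays. None was called (0.0793% of all probe sets), and the median difference was 0.00, with 15 above and 15 below 0. The groups did not overlap for 4 genes that were higher (6.69% of all probe sets) and 2 that were lower (6.93%). The former were Slc16a8, Slc13a4, Trpm3 and Ace, and the latter Cldn1 and Lmx1a. Unadjusted p-values under 0.05 were found for 2 genes that were higher and 2 that were lower, against 3.82% higher and 3.96% lower over all probe sets. The higher were Slc16a8, a lactate carrier, and Rdh5, a retinol dehydrogenase, with differences of 0.79 (limma adjusted p = 0.469) and 0.46 (limma adjusted p = 0.634). The lower were the claudin Cldn1, with a difference of -0.44 (limma adjusted p = 0.386), and the patterning factor Lmx1a, with -0.31 (limma adjusted p = 0.572). Cldn1 was at 9.63, 9.70 and 9.67 on the aged arrays, against 10.22, 10.10 and 9.99 on the young arrays, with no overlap, as for 6.93% of all probe sets in that direction.

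Marker lists of other cell types spread more between the arrays than the 30 epithelial genes. The mean of the 14 endothelial markers was 4.68 to 4.79 on the aged arrays and 5.07 to 5.56 on the young arrays, with 14 of 14 differences below 0. None was called (0.0198% of all probe sets in that direction), 11 had an unadjusted p under 0.05 (3.96%) and 11 did not overlap between the groups (6.93%). The 14 macrophage markers had means of 4.92 to 5.57 in aged and 4.29 to 4.78 in young tissue, with 12 of 14 differences above 0. None was called (0.0595% of all probe sets in that direction), 10 were higher with an unadjusted p under 0.05 (3.82%) and 10 lay above the young arrays without overlap (6.69%), while 1 was lower by both measures. Fibroblast means were 5.33 to 5.63 in aged and 5.59 to 6.60 in young tissue, and mural cell means were 4.39 to 4.57 in aged and 4.71 to 5.26 in young tissue. Ependymal markers, some of which the choroid plexus epithelium may also express, numbered 12, and their means were 6.29 to 6.57 in aged and 6.38 to 6.56 in young tissue. The neuron list had its highest mean, 6.78, on aged replicate 1 and its lowest, 4.56, on aged replicate 2, with 5.19 to 5.62 on the young arrays. The astrocyte list likewise stood at 6.78 on aged replicate 1 and 4.79 on aged replicate 2, with 5.97 on aged replicate 3 and 5.52 to 6.51 on the young arrays. Oligodendrocyte means were 6.09, 4.95 and 6.64 on the aged arrays and 6.13, 5.88 and 7.13 on the young arrays. The part of these lists in the values of the 10 identity genes was not tested. Of the red blood cell list, 4 of 6 genes had a probe set, with means of 2.46 to 2.94 in aged and 2.60 to 3.19 in young tissue, under the background guide of 3.46 described with the methods.

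**Figure D5:**
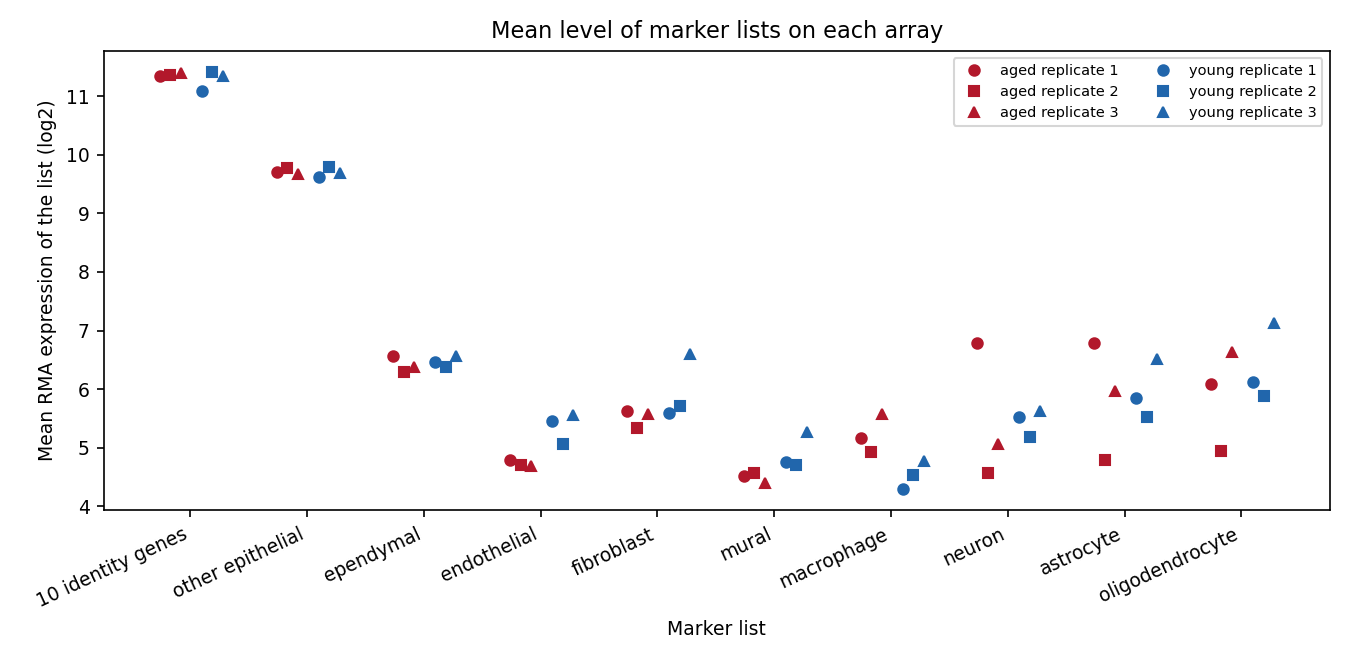
Mean log2 expression of the 10 identity genes and of 9 marker lists on each array, aged (red) left of young (blue). The identity genes lie between 11.09 and 11.42 and the other epithelial genes between 9.62 and 9.79, while the neuron list spans 4.56 to 6.78.

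The pathways in which the 10 genes act were read from lists of their partners. Over the 10 lists 0 genes were called in either direction, where 0.0595% of all probe sets were called higher and 0.0198% lower. List medians lay between -0.17 and 0.04. Counts past an unadjusted p of 0.05 are called nominal here, and they hold for 3.82% of all probe sets upward and 3.96% downward. Of 21 partners of Ttr in retinol and thyroid hormone handling, 2 were nominally higher and 1 nominally lower, with a median of 0.00. Crabp1, a retinoic acid binding protein within the background range, differed by 0.47, Rdh5 by 0.46, and Rbp4, the retinol-binding protein that docks on transthyretin, by -0.52 (limma adjusted p = 0.519, 0.634 and 0.634). Rbp4 was at 4.37, 4.35 and 4.23 in aged tissue and at 4.47, 4.66 and 5.38 in young tissue, with no overlap and young replicate 3 highest. That array also had the highest fibroblast list mean, 6.60, whose part in the Rbp4 value was not tested.

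Of 16 genes around Enpp2 in lysophosphatidic acid signalling, 0 were nominally higher and 2 nominally lower, with a median of -0.16. Lpar4, a receptor for the lipid, was at 4.37, 4.52 and 4.24 on the aged arrays and at 5.37, 5.75 and 5.38 on the young arrays. The groups were well apart, and the difference of -1.13 (SE 0.14) fell short of the threshold, with a limma adjusted p of 0.0559. The endothelial list mean was lower on the same 3 arrays, and its part in this difference was not tested. The lipid phosphatases Plpp3 and Plpp1, which break the lipid down, differed by -0.50 and -0.21 (limma adjusted p = 0.634 and 0.709). Around Sostdc1, 23 receptors, ligands and secreted inhibitors had a median of 0.00, and none reached an unadjusted p of 0.05. Those with the smallest p were the co-receptor Lrp6 (-0.26), the receptor Fzd1 (-0.38) and the secreted inhibitor Sfrp2 (1.29). Sfrp2 was at 3.67, 3.27 and 6.24 in aged tissue, with replicate 3 far above the rest, and at 3.08, 2.98 and 3.23 in young tissue. All young values and that of aged replicate 2 lay under the background guide of 3.46.

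The 20 coagulation genes around F5 had a median of -0.09, with 0 nominally higher and 4 nominally lower. Tfpi, the inhibitor of the tissue factor pathway, was at 3.83, 3.50 and 3.62 on the aged arrays and at 4.78, 4.45 and 5.48 on the young arrays. Its aged values lay close above the background guide of 3.46. The Tfpi difference of -1.25 (limma adjusted p = 0.246) stood beside differences of -0.57 for tissue factor, F3, and -1.04 for thrombomodulin, Thbd (limma adjusted p = 0.438 and 0.465). Thbd was at 4.32, 4.08 and 4.32 on the aged arrays and at 4.74, 5.04 and 6.06 on the young arrays. Tfpi and Thbd are made by endothelium, whose list mean was lower on the aged arrays. Both were highest on young replicate 3, which also had the highest fibroblast and mural list means, 6.60 and 5.26. The part of these lists in the Tfpi and Thbd values was not tested. Folr1 had 18 measured partners in folate uptake and use, with a median of 0.01 and none under an unadjusted p of 0.05. Among those with the smallest p were the hydrolase Ggh (-0.34) and the proton-coupled folate carrier Slc46a1 (0.20).

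For Kl, 22 FGF receptors, endocrine FGFs, relatives and sheddases had a median of 0.04, with 4 nominally higher and 1 nominally lower. Of the 22, 9 lay under the background guide of 3.46, the nominally higher Fgf21 among them. Dusp6 and Spry1, feedback inhibitors induced by FGF signalling, differed by 0.47 and 0.36 (limma adjusted p = 0.510 and 0.577). Spry2, Spry4 and Egr1 of the same list differed by 0.15, -0.004 and -0.08, and a change in FGF signalling was not tested. Dusp6 was at 6.87, 6.43 and 6.80 in aged tissue and at 6.30, 6.34 and 6.06 in young tissue, with no overlap. Adam17, a protease that sheds Klotho, differed by -0.35 (limma adjusted p = 0.60). Of 15 genes around Prlr, 0 were nominally higher and 1 nominally lower, with a median of 0.03. That gene was Igf1, a growth hormone target, at 4.61, 5.20 and 5.25 on the aged arrays and at 5.85, 5.97 and 5.69 on the young arrays, a difference of -0.82 (limma adjusted p = 0.345). Next by p were Elf5 (0.28), within the background range, and the cytokine signalling inhibitor Socs1 (0.23). Cish was at 7.76, 8.58 and 9.03 on the aged arrays and Socs2 at 3.87, 4.81 and 5.20, lowest on aged replicate 1 as was Prlr. Others ran the other way, such as Ghr at 5.86, 5.75 and 5.78. A relation of these genes to Prlr was not tested.

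Around Htr2c, 24 serotonin receptors, Gq effectors and clearing enzymes had a median of 0.04, with 0 nominally higher and 2 nominally lower. These were Htr7 (-0.39), within the background range, and the monoamine oxidase Maoa (-0.40), with limma adjusted p of 0.534 and 0.592. The third by p was Htr1b (-0.47). The 4 relatives of Clic6 had a median of -0.17 and none under an unadjusted p of 0.05. Clic1, Clic3, Clic4 and Clic5 differed by -0.16, -0.22, -0.19 and 0.02 (limma adjusted p = 0.834, 0.849, 0.884 and 0.992). Of 22 transcription factors listed with Otx2, 1 was nominally higher and 2 nominally lower, with a median of -0.02. Msx2 differed by 0.47, Lmx1a by -0.31 and Zic2 by -0.36 (limma adjusted p = 0.510, 0.572 and 0.576).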

How the data were processed

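The authors deposited log2 expression values per Brainarray probe set of 1 Entrez gene, per the file headers. RMA and limma 3.14.4 are named in the submitters' processing notes. Neither the array model nor the build is given in the sources used here. Beside them the authors deposited a signed fold and a t statistic, both scores, p-values, and false discovery rates over all and over filtered probe sets. These p-values differed from the limma fit here by at most 4.5e-13. A second table holds the same log2 values rounded, with a largest difference of 0.005. The deposited fold, t statistic and false discovery rates entered no result here.

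The 25206 probe sets were fitted by lmFit and eBayes of limma 3.58.1 (R 4.3.3), with 1 term for age and no filter, and p-values were adjusted over all of them. Symbols were updated through Entrez identifiers to RefSeq GRCm38.p6 (23740 matched). The 10 genes, the partner and marker lists and the rule for named genes were chosen with earlier results of these data known. The rule names all 10 genes, and in each partner list any called gene and the 3 of smallest p. Not every gene it takes is reported here. In each profile comparison it takes the 2 nearest probe sets. Dusp6, Igf1 and other list genes given by array follow from it, while Cish, Socs2 and Ghr were taken outside it. As a guide to background, 1345 olfactory and vomeronasal receptor probe sets had a 95th percentile of 3.46. No detection or saturation calls were used. Correlations between arrays were 0.982 to 0.990. The fit was tested on simulated data. As alternatives the fit was repeated with the rounded table, with arrays centred on their medians or quantile-normalized again, without dim probe sets (2 filters), with eBayes robust and with a trend, with array weights, with a replicate block, and without each array in turn.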

Additional observations from a re-analysis of the deposited data

How the results depend on the processing

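None of the 10 genes was called by limma in any of the 14 alternatives, and their lowest adjusted p was 0.376, for Prlr without aged replicate 1. That fit was also the only one in which a gene had an unadjusted p under 0.05, so that count ranged from 0 to 1 over the fits without 1 array. Of 140 differences recomputed, 134 did not change direction, 2 were 0 and 4 changed direction. Without young replicate 1 the difference was -0.001 for Ttr, -0.011 for Enpp2 and -0.04 for Folr1. With quantile normalization once more it was -0.015 for Folr1, and 0 for Ttr and Enpp2, since that step gives the first and second rank of every array 1 value. Over the fits without 1 array the differences ranged from -0.001 to 0.591 for Ttr, from -0.011 to 0.471 for Enpp2, from -0.04 to 0.096 for Folr1, from 0.005 to 0.228 for Kl, from 0.112 to 0.431 for Prlr, from -0.214 to -0.075 for Clic6, from -0.169 to -0.012 for Sostdc1, from -0.118 to -0.009 for F5, from -0.115 to -0.023 for Htr2c and from 0.062 to 0.094 for Otx2. Quantile normalization once more gave 0.202 for Prlr, 0.076 for Kl, -0.216 for Clic6, -0.157 for Htr2c, -0.123 for Sostdc1, -0.121 for F5 and 0.024 for Otx2. The cause of the low scale top of young replicate 1 was not tested. Over the whole table, 0 to 52 probe sets were called without 1 array, against 20 with all, and 15 to 28 in the other alternatives. The replicate numbers were not treated as pairs. Deviations of same-numbered arrays correlated at -0.0232, 0.154 and -0.05, and those of differently numbered arrays were not computed, so a shared handling by number cannot be judged. With the replicate block, 15 probe sets were called over the whole table and 0 of the 10 genes.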
